A study of Mus musculus with 6 samples.

Results

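The genes described here encode the proteins of the small (40S) subunit of the cytosolic ribosome, measured in clones of the mouse mammary carcinoma line 4T1. Members were the protein-coding rows whose symbol is Rps followed by a number, with an optional a, x or l and a further digit, together with Rpsa and Fau. Genes of the S6 kinases were left out. The rule found 33 of the 19179 genes listed, and all 33 were among the 10097 genes tested. They comprise the 32 small-subunit proteins other than Rack1 and the paralog Rps27l. Rps4l, a further paralog, is typed as a pseudogene in the files and is not a member. It is listed at 0 RPKM in 5 libraries and at 1.78 RPKM in replicate 1 of the other clones.

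4T1 is an epithelial line, derived from a BALB/c mammary tumour, whose tumours metastasise in the mouse. Clones grew for 14 days from 1 cell per well of 96-well plates. Stem-type and other clones were then picked, 10 of each kind, with 3 batches coming from 3 separate experiments, and their mRNA was sequenced. The labels leave unclear whether the 10 clones refer to each batch or to all batches. Clones with the tissue label breast cancer stem cell gave 3 libraries (stem-labelled), and clones labelled breast cancer cell gave 3 libraries (other). Both kinds were untreated 4T1 cells in the same medium, and the criterion that sorted clones into kinds is not given in the labels. Whether clones were pooled within a library is not stated either, so p-values measure the spread between these libraries.

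The small subunit binds the mRNA, scans for the start codon and decodes each codon against the anticodon of a tRNA. Its proteins fold around the 18S ribosomal RNA into a head, which moves during translation, and a body with a platform, and the genes are scattered over many chromosomes. Messenger RNAs of ribosomal proteins are among the most abundant in growing cells. They begin with a run of pyrimidines, the 5′ terminal oligopyrimidine or TOP tract, through which mTOR signalling controls their translation.

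Reads in genes numbered 21196572 to 22838870 per stem-labelled library and 15357608 to 16830762 per library of the other clones. Divided by the library total that the deposited RPKM imply, they came to 0.658 to 0.757 for stem-labelled libraries and 1.23 to 1.53 for other libraries, so this ratio moved with the groups. Its part in the changes was not tested, beyond the rescaled values given with them. All 7 epithelial markers were listed and 6 reached 1 RPKM in at least 3 libraries, with summed levels of 928 to 1432 RPKM in stem-labelled and 2053 to 3734 RPKM in other libraries. Krt8 and Krt18 made up most of these sums, while Epcam had means of 55.2 and 56.2 RPKM and Cdh1 of 68.9 and 16.0 RPKM. Of the leukocyte markers, Cd68 reached 6.08 to 39.9 RPKM, while Ptprc and Csf1r stayed at or near 0. Fibroblast markers summed to at most 3.38 RPKM and endothelial markers to at most 0.0672 RPKM. In such bulk libraries, fewer cells of a kind and less RNA per cell cannot be told apart.

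Small-subunit ribosomal protein genes took 4.50%, 4.29% and 3.09% of the reads in genes in stem-labelled replicates 1 to 3, and 8.94%, 7.80% and 11.3% in replicates 1 to 3 of the other clones. The groups did not overlap, with means of 3.96 ± 0.762% and 9.35 ± 1.79% (SD, n = 3 each). Mitochondrially encoded transcripts moved the same way, with 0.964 to 1.23% of reads in stem-labelled and 2.42 to 7.78% in other libraries, and their part in the shares was not tested. The large-subunit ribosomal proteins took 5.05 ± 0.881% and 12.5 ± 2.12% of the reads.

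**Figure D1:**
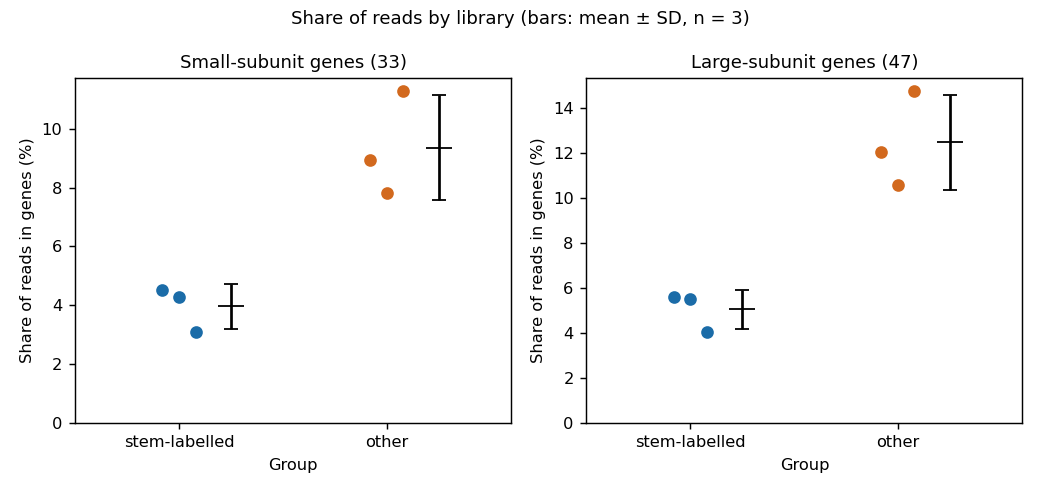
Share of the reads in genes taken by the 33 small-subunit genes and by 47 large-subunit genes, in percent, for each library (points) with the group mean ± SD (bars, n = 3). In both panels the highest stem-labelled library lies below the lowest library of the other clones.

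Of the 33 genes, 27 were lower in the stem-labelled clones, 0 were higher and 6 did not pass (limma on log2(RPKM + 1), adjusted p under 0.05, two-sided). RPKM divide a gene's reads by the library total the authors used and by the gene's length. Over all tested genes 25.4% were called lower and 29.9% higher. The median change of the 33 genes was -1.97 on the log2 scale (stem-labelled minus other), against 0.11 for all genes. Ratios of the mean RPKM ran from 1.16-fold to 27.6-fold higher in the other clones, with a median of 3.88-fold. At least 2-fold higher there were 26 genes, at least 4-fold 16 and at least 8-fold 6. These ratios use the RPKM as deposited, and the shares of all genes at these folds were not computed. All 3 stem-labelled libraries lay below all 3 other libraries for 31 of the 33 genes and for 27.8% of all tested genes.

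The share called lower was close to that of abundant short transcripts, and the classes given here include the members. Of the 552 tested genes with a geometric mean of at least 100 RPKM, 67.8% were called lower. Of the 357 among them with a length under 2000 bases, 77.6% were called lower, with a median of -1.79. In the same class, 21 of 26 small-subunit genes were called lower, with a median of -1.92. Among all tested genes the median ran from -1.17 in the shortest length decile to 0.72 in the longest. Under 1000 bases 12 of 13 members and 61.6% of all genes were called lower, and from 1000 to under 2000 bases 9 of 13 members and 47.6% of all genes. Of the 7 members with a deposited length of at least 2000 bases, 6 were called lower, with a median of -1.97. Of all genes of that length 17.0% were called lower, and 49.7% of the 195 with a geometric mean of at least 100 RPKM, whose median was -0.80. For 5 of these 7 members the mRNA is only 560 to 751 bases long, so most of them are long in the deposited gene model and not as transcripts. Deposited lengths of members ran from 447 to 6270 bases, although the coding sequences are only 168 to 885 bases long. For Rps15a the deposited length was 9.80 times that of its shortest annotated mRNA, and for Rps19 7.40 times, so the RPKM of such genes understates the level of their mRNA.

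**Figure D2:**
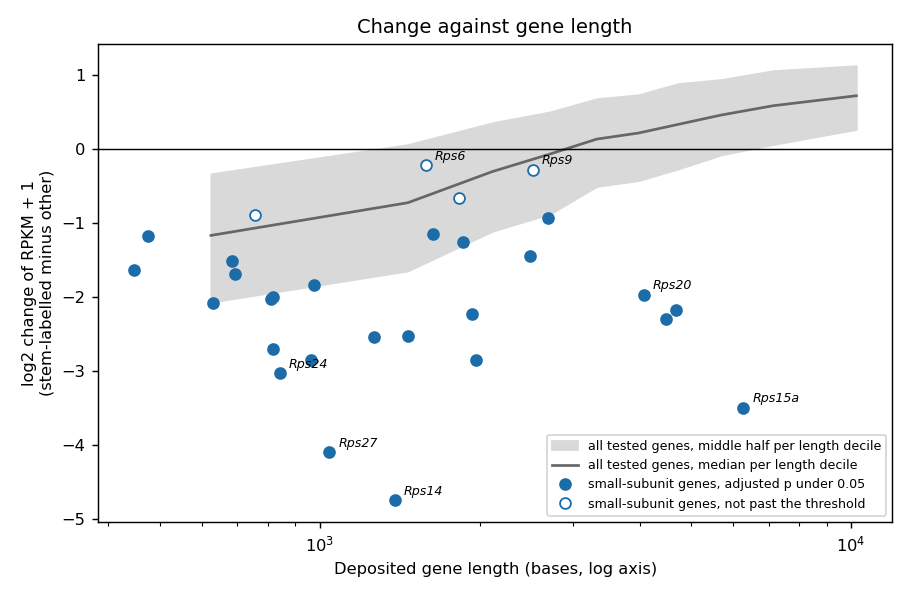
Log2 change of RPKM + 1 (stem-labelled minus other) against deposited gene length in bases on a log axis, for 29 small-subunit genes (points, filled where the adjusted p is under 0.05) and for all tested genes (line and band, median and quartiles in each length decile). Short genes lie low as a whole, and Rps14, Rps27, Rps15a, Rps20 and other members lie below the band of their deposited length.

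The scale of the values bears on the size of these changes. When each library was put on the scale of its own summed gene reads (called rescaled here), the median of all genes moved from 0.11 to 0.86 and that of the 33 genes from -1.97 to -1.03, so that the distance between them was nearly kept. On that scale 18 members were called lower and 1 higher, where 12.3% and 58.7% of all genes were. With the trend on gene length and GC content removed, the median was -1.13, with 21 members lower and 1 higher against 24.9% and 22.3% of all genes. Of the 27 genes, 16 were called lower under each of the 15 alternatives run, among them Rps3, Rps7, Rps14, Rps15a, Rps19, Rps24, Rps27, Rps27a and Rps27l. The share of all tested genes called lower in every alternative was not computed, so this count has no background beside it.

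**Figure D3:**
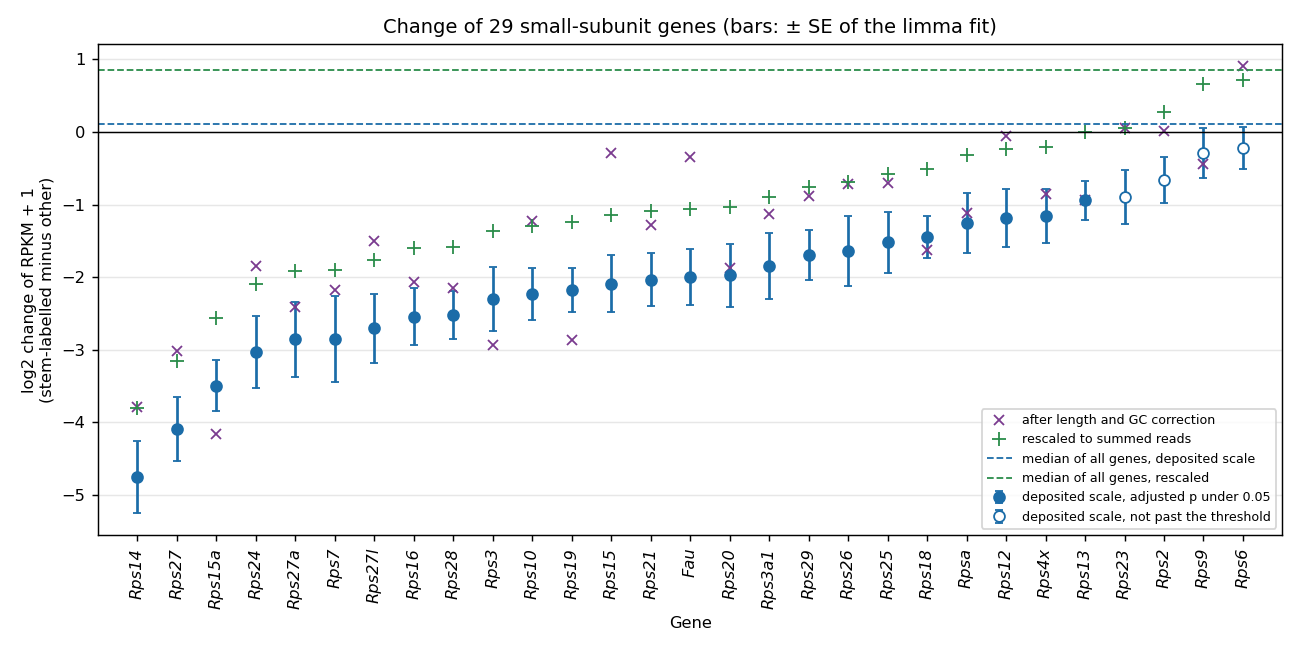
Log2 change of RPKM + 1 (stem-labelled minus other) of 29 small-subunit genes with the SE of the limma fit (circles, filled where the adjusted p is under 0.05), after the correction for length and GC content (crosses) and rescaled to summed reads (plus signs), with the medians of all tested genes as dashed lines. Changes run from -4.75 for Rps14 to -0.22 for Rps6, and rescaling lifts Rps2, Rps6, Rps9 and Rps23 above 0.

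Proteins of the body and platform included both ends of the range. Of the 18 measured, 13 fell, 0 rose and 5 did not pass, with a median of -1.44. Of all tested genes 25.4% were called lower, and 67.8% of those with a geometric mean of at least 100 RPKM. Rps14 (ENSMUSG00000024608, chromosome 18, 60774510 to 60778546), a platform protein whose gene is deleted in the human 5q- syndrome, showed the largest change. It stood at 622, 639 and 305 RPKM in the stem-labelled libraries and at 15568, 7574 and 20039 RPKM in replicates 1 to 3 of the other clones. The groups lay far apart, and replicate 2 of the other clones was the lowest of its group. Means were 522 ± 188 and 14394 ± 6315 RPKM (SD, n = 3), a change of -4.75 ± 0.50 (SE, limma adjusted p = 0.000148). Its share of all small-subunit reads was 2.45 ± 0.337% in stem-labelled and 14.7 ± 3.31% in other libraries, where it had the highest RPKM of the members in every library.

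Rps27 (ENSMUSG00000090733, chromosome 3, 90212522 to 90213651), a zinc-binding protein, showed the next largest change. It stood at 610, 686 and 475 RPKM against 12174, 5831 and 14011 RPKM, a change of -4.09 ± 0.44 (adjusted p = 0.000155). Almost all of its mRNA, 98.6% of its 50-base stretches, also occurs in the retrogene Rps27rt, which is listed apart at 27.0 to 43.1 RPKM in the stem-labelled and 324 to 779 RPKM in the other libraries. How the authors' counting divided shared reads is not stated, so values of the pair are uncertain as to their split, while both rows were lower in the stem-labelled libraries. The paralog Rps27l (ENSMUSG00000036781, chromosome 9, 66946086 to 66949516), known as a target of p53, shares only 22.4% of its stretches. It stood at 157, 131 and 81.0 RPKM against 911, 376 and 1382 RPKM, a change of -2.71 ± 0.48 (adjusted p = 0.00132). Both paralogs were thus lower in every stem-labelled library than in any other library.

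Rps15a (ENSMUSG00000008683, chromosome 7, 118104372 to 118116188), a body protein close to the 18S core, stood at 75.3, 69.3 and 44.8 RPKM against 812, 453 and 956 RPKM. It had the smallest adjusted p of all members (-3.50 ± 0.35, adjusted p = 0.000132), and its change after the length and GC correction, which takes the overlong deposited length, was -4.15. Rps24, a body protein mutated in some patients with Diamond-Blackfan anaemia, stood at 761, 739 and 520 RPKM against 7213, 2552 and 8653 RPKM (-3.03 ± 0.50, adjusted p = 0.000959). Rps7, also of the body and known to bind MDM2 outside the ribosome, stood at 1145, 1092 and 638 RPKM against 7439, 2778 and 14462 RPKM (-2.85 ± 0.59, adjusted p = 0.00314). In the other clones both genes spread by over 3-fold between replicates 2 and 3, and even replicate 2 stood above every stem-labelled library.

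Promoter sequences are shown for members at both ends of the range, since a TOP tract is the sequence feature these genes are known to share. In the RefSeq table of the GRCm38.p6 build, 25 of the 33 genes had a start site. A cytosine followed by at least 4 pyrimidines, with the cytosine within 5 bases of the annotated start site on the gene's strand, was present in 13 of the 25 (52.0%) and in 17.1% of all 32851 promoters in the table. Among genes called lower 9 of 21 had it, and among those not called 4 of 4. In Rps23, Rps2, Rps9 and Rps6, which were not called, the cytosine lay at 3, 4, -5 and -1 bases from the annotated start site. The annotated start sites of Rps2 and Rps10 lay 1947 and 1385 bases from the deposited gene starts, so their tracts are uncertain. Each line gives 30 bases before the start site and 20 from it on, 5′ to 3′ on the gene's strand, with the tract in capitals. Rps27 to Rps7 are the 4 members among the 25 with the largest change, and Rps23 to Rps6 the 4 with the smallest.
Rps27, chr3:90213629-90213678, minus strand: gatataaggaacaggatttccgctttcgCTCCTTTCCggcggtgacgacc
Rps15a, chr7:118116128-118116177, minus strand: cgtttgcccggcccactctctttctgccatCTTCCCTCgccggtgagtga
Rps24, chr14:24490648-24490697, plus strand: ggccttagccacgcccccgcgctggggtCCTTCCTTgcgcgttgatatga
Rps7, chr12:28635934-28635983, minus strand: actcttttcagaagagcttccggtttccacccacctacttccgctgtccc
Rps23, chr13:90923092-90923141, plus strand: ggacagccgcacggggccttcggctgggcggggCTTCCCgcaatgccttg
Rps2, chr17:24720033-24720082, plus strand: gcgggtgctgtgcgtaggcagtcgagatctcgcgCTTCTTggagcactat
Rps9, chr7:3704011-3704060, plus strand: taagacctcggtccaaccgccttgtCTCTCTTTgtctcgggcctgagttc
Rps6, chr4:86857348-86857397, minus strand: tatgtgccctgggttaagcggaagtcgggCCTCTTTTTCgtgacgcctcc
Rps27 and Rps6 stand at opposite ends in change and both carry a tract at the start site, of 9 and 10 bases, while Rps7 has none in this window by this definition. The motif CCGGAAG, bound by ETS factors, was found on either strand of the 300-base windows of 11 of the 25 genes (44.0%) and of 8.86% of all promoters. Its reverse strand contains a run of 5 pyrimidines, so that 1 stretch can count for both motifs.

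At the other end of the body and platform stood Rps6, the protein phosphorylated by the S6 kinases. Rps6 (ENSMUSG00000028495, chromosome 4, 86854660 to 86857412) was at 506, 523 and 371 RPKM in the stem-labelled libraries and at 480, 532 and 611 RPKM in the others, and the groups overlapped. Its change was -0.22 ± 0.29 (adjusted p = 0.541), and it turned to 0.72 with rescaling (adjusted p = 0.0383) and to 0.91 after the length and GC correction (adjusted p = 0.00832). Rps9, a body protein that binds 18S RNA early in assembly, also overlapped, at 663, 672 and 389 RPKM against 563, 848 and 656 RPKM (-0.28 ± 0.34, adjusted p = 0.500). Both took a smaller share of the small-subunit reads in the other clones. Rps9 took 4.99 ± 0.225% of them in stem-labelled and 1.43 ± 0.687% in other libraries, and Rps6 2.61 ± 0.271% and 0.680 ± 0.172%.

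Rps2 and Rps23 did not pass either, although their groups did not overlap. Rps2, at the mRNA entry side, stood at 750, 644 and 496 RPKM against 870, 1110 and 983 RPKM (-0.66 ± 0.31, adjusted p = 0.0999). The copy Rps2-ps10, which holds 70.9% of the stretches of Rps2, is listed at higher levels than Rps2 itself, 984 to 1572 RPKM and 3305 to 4751 RPKM. How shared reads were divided between these rows is not stated, so both the level and the change of Rps2 are uncertain. Rps23, which lies by the decoding centre, stood at 791, 739 and 446 RPKM against 1028, 977 and 1654 RPKM (-0.89 ± 0.37, adjusted p = 0.0666). When rescaled, the changes were 0.28 for Rps2 and 0.052 for Rps23, and after the length and GC correction 0.016 and 0.062, with no call.

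Rpsa, the laminin receptor protein on the back of the subunit, took more reads than any other member in the stem-labelled libraries. It stood at 3308, 2472 and 1719 RPKM against 5286, 6883 and 5225 RPKM, with no overlap (-1.25 ± 0.42, adjusted p = 0.0289). Its share of small-subunit reads was 16.0 ± 1.92% in stem-labelled and 8.91 ± 3.96% in other libraries. The call for Rpsa was lost without stem-labelled replicate 2 (adjusted p = 0.0810) and without replicate 1, 2 or 3 of the other clones (adjusted p = 0.0667, 0.0672 and 0.0518). It was also lost with no filter (adjusted p = 0.206) and when rescaled, where the change was -0.31 (adjusted p = 0.485).

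Other body and platform genes lay between these ends. Rps26, at the mRNA exit site, stood at 2992, 3065 and 1711 RPKM against 5326, 7196 and 12282 RPKM (-1.64 ± 0.48, adjusted p = 0.0166), and was called in 9 of the 15 alternatives. It missed the threshold without replicate 3 of the other clones (adjusted p = 0.0558), with no filter (0.164), when rescaled (-0.69, adjusted p = 0.149) and after the length and GC correction (-0.71, adjusted p = 0.118). Rps4x, the X-linked copy of RPS4, stood at 672, 792 and 505 RPKM against 1248, 1119 and 2129 RPKM (-1.15 ± 0.37, adjusted p = 0.0244). Its call was lost without stem-labelled replicate 1 or 3 and without replicate 3 of the other clones (adjusted p = 0.0650, 0.0594 and 0.0912). It was also lost with no filter (adjusted p = 0.0806) and when rescaled, where the change was -0.21 (adjusted p = 0.572). Fau, which is made as a fusion of a ubiquitin-like protein with the ribosomal protein, stood at 1338, 1313 and 755 RPKM against 3853, 4480 and 4892 RPKM (-2.00 ± 0.39, adjusted p = 0.00215). After the length and GC correction the change of Fau was -0.34 (adjusted p = 0.299). Rps13, a platform neighbour of Rps14, was the lowest member per deposited length in the other clones, at 217, 285 and 284 RPKM against 153, 150 and 107 RPKM (-0.94 ± 0.27, adjusted p = 0.0155), and with rescaling its change was -0.0017. Rps3a1 and Rps21 were also called lower, with changes of -1.84 and -2.03, and Rps3a1 lost its call when rescaled (-0.90, adjusted p = 0.0517).

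Most genes for proteins of the head were lower. Of 14 measured, 13 were lower, 0 higher and 1 did not pass, with a median of -2.13. The same call was made for 25.4% of all tested genes and 67.8% of those with a geometric mean of at least 100 RPKM. A difference between head and body was not tested. Rps27a, made as a fusion with ubiquitin, stood at 458, 387 and 237 RPKM against 3069, 1147 and 4576 RPKM (-2.86 ± 0.52, adjusted p = 0.00156). The groups were separate, with replicate 2 of the other clones again the lowest of its group.

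Rps19, the gene most often mutated in Diamond-Blackfan anaemia, stood at 144, 139 and 86.9 RPKM against 463, 640 and 551 RPKM (-2.17 ± 0.30, adjusted p = 0.000417). Here replicate 2 was the highest of the other clones. Rps3, which forms part of the mRNA entry channel, stood at 401, 371 and 227 RPKM against 1622, 926 and 2724 RPKM (-2.30 ± 0.44, adjusted p = 0.00200). Rps3 is nearly free of shared sequence, with 2.96% of its 50-base stretches found in another gene. After the length and GC correction the changes were -2.87 for Rps19 and -2.94 for Rps3. The correction takes the deposited length, which is 7.40 and 2.35 times that of the mRNA. The part of this length in these 2 values was not tested.

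Rps15 was nearly level within the other clones, at 5817, 6077 and 6009 RPKM against 1625, 1722 and 985 RPKM (-2.09 ± 0.39, adjusted p = 0.00181). After the length and GC correction its change was -0.29 (adjusted p = 0.380). Rps15 was chosen for this detail after its values were seen. Rps10, Rps12, Rps16, Rps18, Rps20, Rps25, Rps28 and Rps29, also of the head, had changes from -2.54 for Rps16 to -1.18 for Rps12. When rescaled the calls for Rps18 (-0.50, adjusted p = 0.125) and Rps25 (-0.58, adjusted p = 0.159) were lost, and that for Rps25 also with no filter (0.0597) and after the length and GC correction (0.0669). The call for Rps12 held in 5 of the 15 alternatives. It was lost without any one of the libraries except stem-labelled replicate 3 (adjusted p from 0.0614 to 0.0684) and with no filter (0.203). When rescaled the change of Rps12 was -0.24 (adjusted p = 0.573), and after the length and GC correction -0.057 (adjusted p = 0.901).

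**Figure D4:**
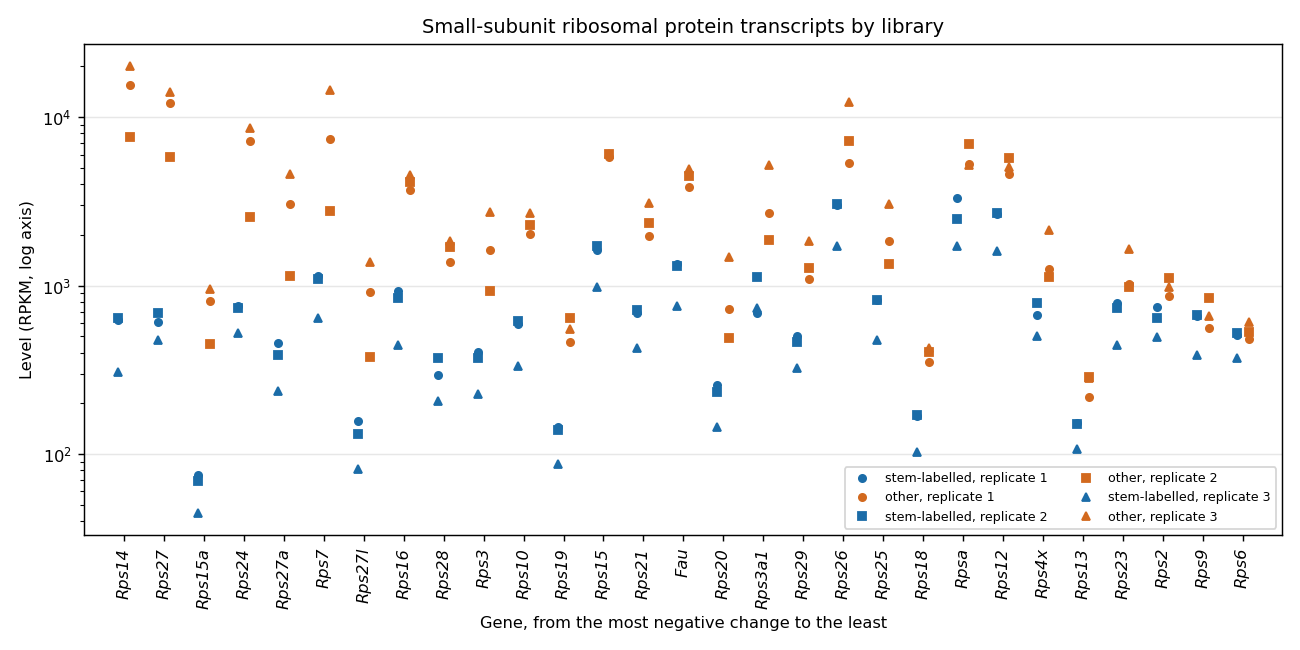
RPKM of 29 small-subunit genes in every library on a log axis, ordered from the most to the least negative change (blue, stem-labelled; orange, other; marker shape, replicate). The groups overlap for Rps6 and Rps9 alone, and stem-labelled replicate 3 is the lowest library for all genes shown but Rps3a1.

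Within the stem-labelled clones the members kept their proportions, and within the other clones less so. Stem-labelled replicate 3 was the lowest of its group for 32 of the 33 genes. Correlations of log2 RPKM over the 33 genes, which share library depth, were 0.983 to 0.992 between stem-labelled libraries, 0.867 to 0.980 between the other libraries and 0.593 to 0.818 between groups. In the other clones, replicate 2 was the lowest for 14 genes, the highest for 7 and between for 12. Relative to the geometric mean of replicates 1 and 3, its log2 value ran from -1.90 for Rps7 to 0.48 for Rps9. This deviation was higher for genes of higher GC content of the mRNA, which ran from 41.3 to 59.6% (Pearson r = 0.58, Spearman rho = 0.61 over 33 genes). The lowest GC value, that of Rps20, comes from a transcript of 3706 bases with a coding sequence of 357 bases. The change between groups itself showed little relation to GC content (r = 0.13), to deposited length (r = -0.04) or to shared sequence (r = 0.00) over the same genes. The part of GC content in the deviation of replicate 2 was not tested.

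**Figure D5:**
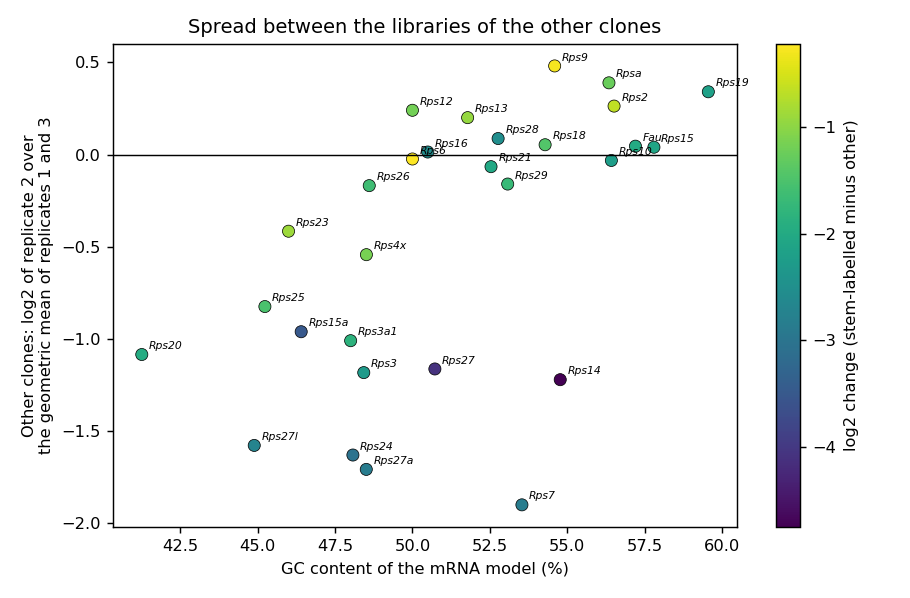
Log2 of replicate 2 over the geometric mean of replicates 1 and 3 of the other clones for 29 small-subunit genes, against the GC content of the mRNA in percent, coloured by the log2 change between groups. Rps7, Rps27a, Rps24 and Rps27l lie lowest, and Rps9, Rpsa and Rps19 highest.

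Copies of these genes elsewhere in the genome were counted as separate rows. Between 0 and 98.6% of the 50-base stretches of a member's mRNA occurred in a transcript of another gene, with a median of 61.2%, and for 19 members the share was over 50%. The files list 60 retrocopies and pseudogenes named after members, of which 34 were tested. Of these 23 were called lower, 0 higher and 11 did not pass, with a median of -1.01. Their median length was 462 bases, and of all genes under 1000 bases 61.6% were called lower, with a median of -1.20. After the length and GC correction 5 retrocopies were lower and 7 higher. They took 0.217 ± 0.0332% of the reads in stem-labelled and 0.354 ± 0.0834% in other libraries. Several members also overlap other listed genes in their exons, such as Rps18 with Vps52 and Rps28 with Kank3 on the opposite strand, and the strand of counting is not stated.

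Other genes of the translation machinery are given beside the 25.4% lower and 29.9% higher over all genes, or 12.3% and 58.7% when rescaled. Rack1 (listed as Gnb2l1), the scaffold protein that completes the head, was lower, at 355 ± 114 RPKM against 1433 ± 343 RPKM (-2.04 ± 0.37, adjusted p = 0.00150), as did 36 of the 46 large-subunit genes tested, with 0 higher and a median of -1.95. Of 49 factors that assemble the small subunit, 18 were lower, 5 higher and 26 did not pass, with a median of -0.19. When rescaled 4 were lower and 25 higher, with a median of 0.68 against 0.86 for all genes. Rrp9, a protein of the U3 snoRNP, stood at 31.3 ± 7.67 RPKM against 385 ± 175 RPKM (-3.51 ± 0.35), and Fcf1, which takes part in cleaving the 18S precursor, at 17.3 ± 3.33 RPKM against 257 ± 161 RPKM (-3.60 ± 0.46). Of 25 initiation factors that bind the small subunit, 5 were lower, 2 higher and 18 did not pass, and when rescaled 2 were lower and 10 higher. The scaffold Eif4g1 was higher, at 98.7 ± 9.01 RPKM against 31.5 ± 4.22 RPKM (1.62 ± 0.22), and the initiation factor 3 subunit Eif3e was lower, at 154 ± 16.5 RPKM against 879 ± 582 RPKM (-2.31 ± 0.43). After the length and GC correction the change of Eif3e was -0.43 and that of Eif4g1 0.95.

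Of 19 tested genes of the S6 kinases and of the mTOR pathway that controls TOP mRNAs, 3 were lower, 6 higher and 10 did not pass, beside 25.4% lower and 29.9% higher over all genes. When rescaled 2 were lower and 14 higher. Eif4ebp1, a repressor of cap-dependent initiation, stood at 119 ± 24.6 RPKM against 717 ± 222 RPKM (-2.56 ± 0.32). Larp1, which binds the TOP tract, was higher, at 28.4 ± 5.93 RPKM against 8.77 ± 0.962 RPKM (1.57 ± 0.22), and so was the mTORC1 scaffold Rptor, at 9.32 ± 1.73 RPKM against 2.22 ± 0.336 RPKM (1.67 ± 0.20). These 3 genes kept their direction after the length and GC correction, with changes of -1.86, 0.87 and 1.10. Not all called genes of the list did. Mtor was called higher (0.57 ± 0.18, limma adjusted p = 0.0215) but stood at -0.23 after the correction. Tsc1, at 2.68 RPKM against 0.306 RPKM, went from 1.48 to 0.36. After the correction 3 genes of the list were called lower and 4 higher, beside 24.9% and 22.3% of all genes. Larp1 was singled out for its role, and Mtor for its reversal, after their values were seen.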

How the data were processed

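Messenger RNA of 6 samples of 4T1 clones was sequenced, 3 per group. Groups follow the tissue labels and replicate numbers the titles. The authors deposited RPKM values, 1 file per library with 19179 genes, coordinates and a gene length. The submitters' processing notes name Bowtie2 2.0.6, TopHat2 2.0.9 and mm9 without their roles. The counting program and strand are not given in the sources used here. Coordinates matched GRCm38, since 80.6% of the genes found in GENCODE M21 had the same start and end, as did 22 of the 33 members, and are given on that build. Multiplied by gene length, 100% of values were whole multiples (tolerance 0.01) of 1 number per library, 0.0311 to 0.0993 RPKM for 1 read in a gene of 1 kilobase, and this returned the reads.

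Groups were compared on log2(RPKM + 1) with the variance trend of limma 3.58.1 (R 4.3.3), over the 10097 genes with at least 1 RPKM in at least 3 libraries. Tests were two-sided, with Benjamini-Hochberg adjustment over all tested genes and a threshold of 0.05. Fold changes on this scale understate those of low genes. The correction subtracted splines (5 degrees of freedom) of log2 deposited length and GC content from each library. GC content there was that of a gene's longest GENCODE M21 transcript, while the GC content of a member's mRNA was that of its shortest CCDS transcript. The fit was tested on simulated data with normal noise and few changed genes, unlike these data, where many genes were called. A first check, on the share of large changes found, failed. It was replaced, after its result was seen, by checks of bias, sign and false calls. Alternatives were the replicate block, leaving out each library, no filter, mean RPKM of at least 5, a pseudocount of 0.1, both rescalings (summed reads, upper quartile), the correction with and without the block, and limma-voom, run on those reads after median-of-ratios scaling. The members, lists and alternatives were chosen with earlier results of these data known. Values in each library were given by rule for the 6 most and 6 least changed members, the 4 of highest mean RPKM, the fusion genes, Rpsa, the paralogs, Rps6, Rps19, Rps3 and Rps14. From each other list up to 4 called genes with the smallest p were eligible. The lists held 47 large-subunit genes, 49 assembly factors found in the files, 25 initiation factors and 20 kinase and mTOR genes, beside Rack1 and 4 sets of cell type markers. Shared sequence is the share of 50-base stretches of a member's shortest CCDS transcript found in a transcript of another gene. Some members are not reported by name here and are left out of the plots of single genes, while the counts and medians include them.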

Additional observations from a re-analysis of the deposited data

How the results depend on the processing

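Between 21 (no filter) and 30 (limma-voom) members were called lower under alternatives using all 6 libraries, save for 18 when rescaled to summed reads and 20 with the correction and the replicate block together. Leaving out 1 library gave 22 to 26 lower, 0 higher and medians from -2.13 to -1.54. Among the alternatives, numbers or shares of all genes called lower are given only for rescaling to summed reads, the length and GC correction and leaving out 1 library. Member counts under the other alternatives have no background beside them. One member, Rps6, was called higher when rescaled (median of the members -1.03), after the length and GC correction (-1.13) and after the correction with the block (-1.13). Of 495 values for single members, 428 kept direction and call, 48 lost and 5 gained a call, and 14 reversed. Reversed when rescaled were, among others, Rps2 (0.28), Rps6 (0.72), Rps9 (0.66) and Rps23 (0.052). Reversed after the correction, with and without the block, were, among others, Rps2 (0.016), Rps6 (0.91) and Rps23 (0.062), and with upper-quartile scaling Rps6 (0.039). The cause was not tested. Of all genes, 1245 were lower and 5926 higher when rescaled, 1405 higher with mean RPKM of at least 5, where fewer genes were tested, and 1988 higher with the correction and the block. Leaving out 1 library gave 2149 to 2302 lower and 2068 to 3034 higher. Whether equal replicate numbers mark the same experiment is not stated. Deviations from the group means correlated at -0.13, 0.03 and -0.08 between same-numbered libraries. With 3 libraries per group, these values cannot show whether the samples are paired. With the replicate block 22 members were lower and 0 higher, with calls lost among others for Rpsa, Rps4x, Rps12 and Rps26 (adjusted p = 0.0895, 0.0635, 0.0984 and 0.0565). Depth did not limit the members, the smallest count being 2129 reads.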
